A study of Homo sapiens with 42 samples.

Results

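The comparison set the trimethylation of lysine 36 of histone H3 (H3K36me3) against that of lysine 9 (H3K9me3) in control NCI-H1299 cells, using the islands called from 4 ChIP-seq libraries, 2 per mark, out of 42 samples in the series. The 4 libraries were taken by their labels. H1299 is a non-small cell lung cancer line. The cells used were a stable, sorted line in which FLAG-tagged DPPA2 and V5-tagged DPPA4 sit under a tetracycline-response element, and the control cells received water for 7 days. The same marks were profiled in cells of this line given 2 µg/mL doxycycline (DOX) for 7 days and in untreated parental NCI-H661 cells of another lung cancer line, with 2 libraries per mark in each. These 8 libraries are set beside the control values, and they also enter the exact tests, which take the difference between the marks over the 3 cell states. The labels do not say whether replicates were separate cultures, and the difference between a pair of replicates may be technical in origin.

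H3K36me3 is deposited by SETD2, which travels with elongating RNA polymerase II, and the mark therefore builds up over the bodies of transcribed genes. H3K9me3 is written by SETDB1, SUV39H1 and SUV39H2, is bound by HP1 proteins and is best known from silent heterochromatin and repeats. A known exception is the C2H2 zinc finger family, transcription factors that often carry a repressive KRAB box: their finger-coding exons can carry H3K9me3 while the genes are transcribed.

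In control cells 28 of 20007 protein-coding genes held both marks, and 26 of the 28 were C2H2 zinc finger genes. A gene was said to hold a mark when islands present in both replicates covered at least 10% of its body and at least 500 bp. H3K36me3 was held by 4220 genes (21.1% of all) and H3K9me3 by 29 (0.145%), so that both marks met in 28 genes (0.14%). A single gene, the zinc finger gene ZNF572, held H3K9me3 without H3K36me3, with 32.8% and 90.2% of its body under H3K9me3 in replicates 1 and 2. It had no H3K36me3 in replicate 1 but 11.5% of its body, in 1 island of 16 reads, in replicate 2, and with replicate 2 as the only H3K36me3 library all 29 genes with H3K9me3 held both marks. The C2H2 share of the 28 was 92.9% (95% Wilson interval 77.4% to 98.0%, counting error only), against 610 C2H2 genes among all 20007. The count rested on H3K9me3 replicate 1: with replicate 2 as the only H3K9me3 library 217 genes held both marks, 70.5% of them C2H2 genes. Of the 26, 16 encoded a KRAB box pattern, and all had between 6 and 30 finger patterns, with a median of 13. The KRAB box was searched as a single fixed amino acid pattern, so genes without a match may still encode one.

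Stretches of finger-coding sequence under both marks are shown from 4 of these genes, because the last coding exon was the region most densely covered by both. Most bases with both marks lay elsewhere in the bodies: the last coding exons of the 28 genes held 23.9 kb of H3K9me3, against 74.1 kb with both marks in all. Each window of 240 bases lies in the last coding exon, wholly under islands of both marks in both replicates, and is printed 5′ to 3′ on the gene's strand from hg38. Capitals mark the motif ACNGGNGA, which encodes the start of the conserved linker between neighbouring fingers.
ZNF594, chr17:5183431-5183670, minus strand: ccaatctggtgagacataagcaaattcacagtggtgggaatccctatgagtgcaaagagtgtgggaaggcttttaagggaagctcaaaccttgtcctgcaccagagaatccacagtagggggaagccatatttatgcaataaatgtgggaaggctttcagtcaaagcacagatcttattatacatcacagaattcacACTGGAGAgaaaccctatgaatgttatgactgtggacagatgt
ZNF184, chr6:27452163-27452402, minus strand: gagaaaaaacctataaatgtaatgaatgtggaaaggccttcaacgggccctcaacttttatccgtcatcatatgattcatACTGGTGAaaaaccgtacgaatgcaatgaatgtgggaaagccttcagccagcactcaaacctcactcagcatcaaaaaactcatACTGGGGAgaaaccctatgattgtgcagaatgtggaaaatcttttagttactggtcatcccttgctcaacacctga
ZNF732, chr4:271481-271720, minus strand: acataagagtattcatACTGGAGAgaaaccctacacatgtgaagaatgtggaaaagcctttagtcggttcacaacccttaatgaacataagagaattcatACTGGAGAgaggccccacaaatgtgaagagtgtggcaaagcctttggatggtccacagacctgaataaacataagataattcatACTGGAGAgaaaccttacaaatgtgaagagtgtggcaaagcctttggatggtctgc
ZNF721, chr4:443631-443870, minus strand: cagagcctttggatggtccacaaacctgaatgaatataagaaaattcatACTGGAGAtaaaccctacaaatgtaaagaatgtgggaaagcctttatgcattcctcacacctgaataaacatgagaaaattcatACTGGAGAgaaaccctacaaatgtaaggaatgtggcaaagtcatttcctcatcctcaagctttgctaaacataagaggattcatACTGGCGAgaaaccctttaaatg

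In these windows 5 of 5 neighbouring matches lay 84 bases apart, the length of 1 finger with its linker. Among all last coding exons cut into windows of 240 bases, the motif on the coding strand was in 34 of 45 windows wholly under both marks in the C2H2 genes (75.6%), in 93 of 117 other windows of the same genes (79.5%) and in 58.5% of 2847 windows of other C2H2 genes. It was in 5.23% of 18043 windows of genes outside the family and in 13% of all windows. On the opposite strand it was in 2.22% of the doubly marked windows and in 4.33% of all. The match is a description of the family's sequence, and windows of the same genes outside the shared islands held it at a like share.

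The libraries differed strongly in how much they covered. H3K36me3 gave 90022 and 98190 islands over 98.6 and 102.2 Mb, with 2681872 and 2773158 reads in islands. H3K9me3 gave 14489 and 21770 islands over 6.72 and 23.1 Mb, with 137991 and 290902 reads. H3K9me3 replicate 2 stood apart, with islands of 1000 bp at the median against 400 bp in replicate 1 and 12.6 reads per kb against 20.5. The replicates shared 56.9 Mb of H3K36me3, which was 57.7% of replicate 1 and 55.7% of replicate 2, but only 1.54 Mb of H3K9me3, or 22.9% and 6.65%. Calls from 1 library show the same imbalance: H3K36me3 was held by 6240 genes in replicate 1 (31.2%) and 6371 in replicate 2 (31.8%), and H3K9me3 by 51 (0.255%) and 414 (2.07%). As a check of the label, H3K36me3 was held by 23 of 30 housekeeping genes and by 0 of 400 olfactory receptor genes.

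Among the 28 genes, H3K36me3 covered 23.9% to 91.3% of the body in replicate 1 (median 55.6%) and 26.1% to 92.1% in replicate 2 (median 65.6%). H3K9me3 covered 10.2% to 31.1% in replicate 1 (median 17.1%) and 19.9% to 93.0% in replicate 2 (median 50.2%). All genes but ZNF32 were covered further by H3K9me3 in replicate 2 than in replicate 1. Reads under the islands ranged from 45 to 1221 and from 55 to 1936 for H3K36me3, and from 24 to 492 and from 18 to 1009 for H3K9me3, so the smallest genes rested on few H3K9me3 reads.

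**Figure D1:**
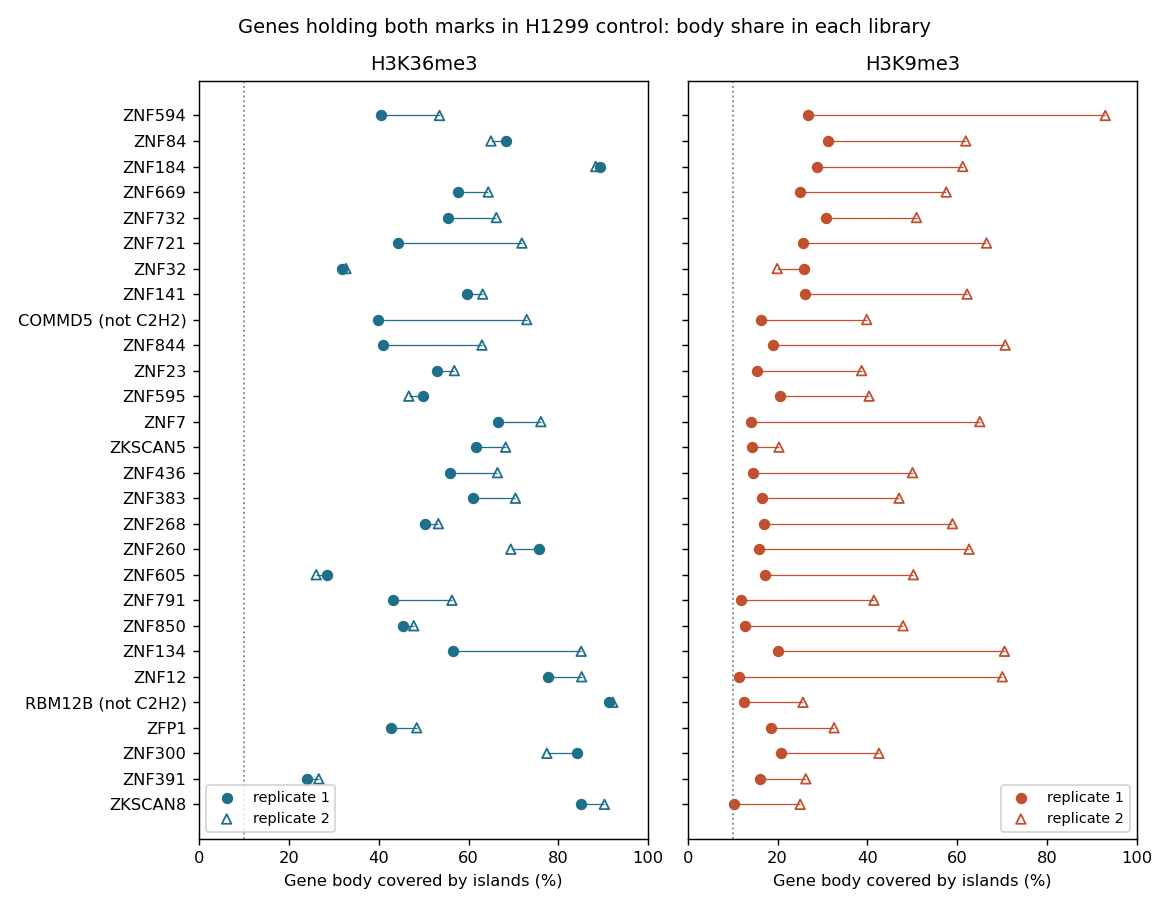
Share of the gene body covered by islands (%, x axis) for each of the 28 genes holding both marks (y axis), in H3K36me3 (left) and H3K9me3 (right); filled circles are replicate 1, open triangles replicate 2, and the dotted line is the 10% minimum. H3K36me3 replicates lie close together for most genes, whereas H3K9me3 replicate 2 lies to the right of replicate 1 in every gene but ZNF32.

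ZNF594, on chromosome 17 (5179535 to 5191868, minus strand, 12.3 kb), led the list by the smaller of its shares common to both replicates. Its body was covered by H3K36me3 to 40.5% and 53.5% and by H3K9me3 to 26.8% and 93.0%. ZNF84, on chromosome 12 (133037292 to 133063304, plus strand), had 68.4% and 65.0% under H3K36me3 and 31.1% and 61.9% under H3K9me3. In both genes the H3K9me3 libraries disagreed far more than those of H3K36me3.

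ZNF184, on chromosome 6 (27450743 to 27473118, minus strand), was almost filled by H3K36me3, at 89.2% and 88.3%, and carried H3K9me3 over 28.9% and 61.2%. The short gene ZNF669, on chromosome 1 (247099962 to 247104372, minus strand, 4.41 kb), had 57.6% and 64.4% under H3K36me3 and 24.9% and 57.6% under H3K9me3, from 24 and 39 H3K9me3 reads. ZNF32, on chromosome 10 (43643860 to 43648881, minus strand), was as thinly supported, with 28 and 18 H3K9me3 reads, and had 31.9% and 32.7% under H3K36me3 against 25.9% and 19.9% under H3K9me3. For ZNF669 and ZNF32 the H3K9me3 share therefore rests on few reads in each library.

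A run of 4 genes at the start of chromosome 4 held both marks. ZNF595 (53286 to 88208, plus strand) had 49.8% and 46.7% of its body under H3K36me3 and 20.6% and 40.4% under H3K9me3. ZNF732 (270675 to 305474, minus strand) had 55.5% and 66.2% under H3K36me3 and 30.8% and 50.9% under H3K9me3. ZNF141 (337814 to 384868, plus strand) had 59.7% and 63.1%, and 26.1% and 62.2%. ZNF721 (425815 to 499156, minus strand), the longest of the 28 at 73.3 kb, had 44.3% and 71.9%, and 25.6% and 66.5%. All of the 4 carried at least 536 H3K36me3 reads per library, and they made up 4 of the 10 C2H2 genes of the chromosome.

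The 2 members outside the C2H2 family both lay on chromosome 8. COMMD5 (144841042 to 144853736, minus strand), a member of the COMM domain family, had 39.9% and 72.9% of its body under H3K36me3 and 16.2% and 39.9% under H3K9me3. All of its bases with either mark in both replicates fell in the 6468 bp it shares with the zinc finger gene ZNF7, which was itself among the 28. RBM12B (93728155 to 93741017, minus strand), an RNA-binding protein gene, had 91.3% and 92.1% under H3K36me3 and 12.4% and 25.7% under H3K9me3, and none of its H3K9me3 lay in its overlap with CIBAR1. Among genes whose bodies overlap no other protein-coding gene, 16 held both marks and all 16 were C2H2 genes. ZNF605 and ZNF791 lie wholly or almost wholly within the bodies of CHFR and ZNF490, and ZNF23 and most of ZNF844 are overlapped by unnamed genes (99.98% and 79.5% of the body), so islands there cannot be assigned to 1 gene. The same holds for 62.7% of the body of ZNF268, overlapped by an unnamed gene, and 59.9% of that of ZNF300, overlapped by IRGM.

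The threshold cut through a continuum of zinc finger genes. Just inside it were ZKSCAN8, ZNF391 and ZNF300, with 10.2%, 10.2% and 10.4% of the body under H3K9me3 in both replicates. Just outside were ZNF623, ZNF281 and ZNF274, with 9.80%, 9.77% and 9.50%. With a minimum of 200 bp in both replicates and no minimum share, H3K36me3 was in 7937 genes (39.7%), H3K9me3 in 947 (4.73%) and both in 677 (3.38%), and 23.8% of the 677 were C2H2 genes.

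Summed over genes, both marks peaked over the last coding exon, which in this family holds the fingers, but not every gene followed. In bases shared by replicates, H3K9me3 reached that exon in 24 of the 26 C2H2 genes, and not in ZNF436 or ZNF300. In ZNF84 H3K36me3 covered 35.4% of that exon against 58.4% of the body. Summed over the 26 C2H2 genes, H3K36me3 covered 53.3% and 60.5% of the bodies but 90.4% and 88.3% of the last coding exons. H3K9me3 covered 19.7% and 51.7% of the bodies but 58.4% and 94.8% of the last coding exons. In introns the coverage was 52.8% and 62.1% for H3K36me3 and 15.8% and 48.3% for H3K9me3. The 3′ untranslated sequence was covered to 38.4% and 38.0% by H3K36me3, below the introns, and to 26.1% and 54.8% by H3K9me3, above the introns but below the last coding exons. Every library thus ranked the last coding exon above introns, although it made up only 6.31% of the bodies.

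The same order was found in 237 C2H2 genes that held H3K36me3 but not H3K9me3. Their last coding exons were covered to 76.3% and 76.5% by H3K36me3, against 34.2% and 38.8% of the bodies. H3K9me3, which fell short of the minimum in these genes, covered 13.3% and 48.4% of the last coding exons and 2.99% and 15.1% of the bodies. In 3955 genes outside the family that held H3K36me3 alone, H3K9me3 covered 0.495% and 1.77% of the last coding exons and 0.302% and 1.23% of the bodies, and H3K36me3 covered 63.7% and 64.7% against 41.5% and 43.7%.

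**Figure D2:**
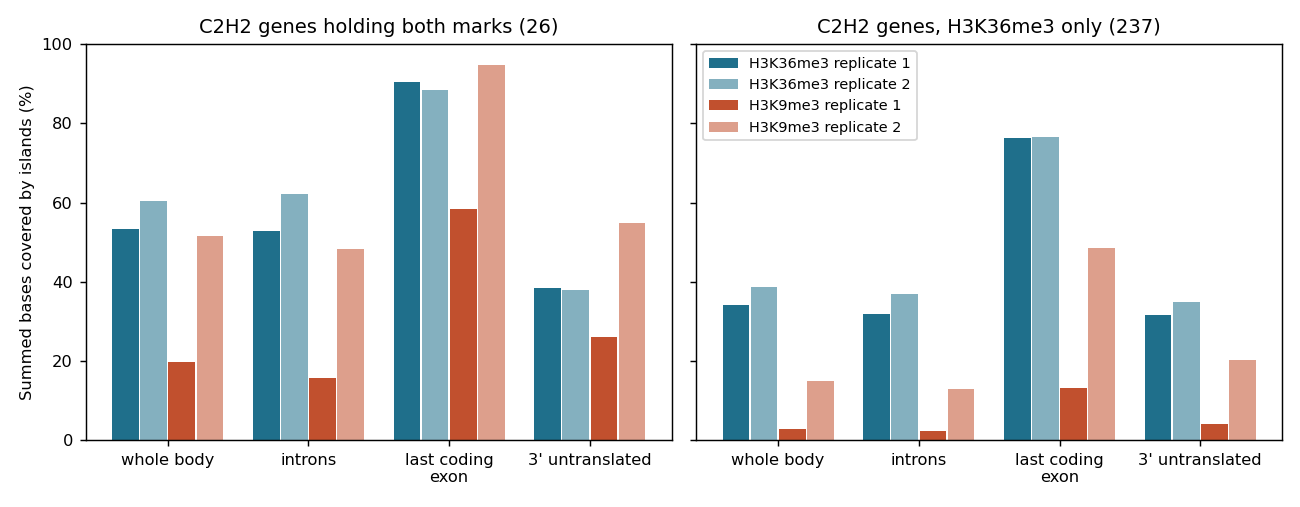
Bases covered by islands (%, y axis), summed over genes, in whole bodies, introns, last coding exons and 3′ untranslated exon sequence (x axis) for the 26 C2H2 genes holding both marks (left) and 237 C2H2 genes holding H3K36me3 only (right); each bar is 1 library. The last coding exon is the highest region in all 4 libraries of both panels.

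**Figure D3:**
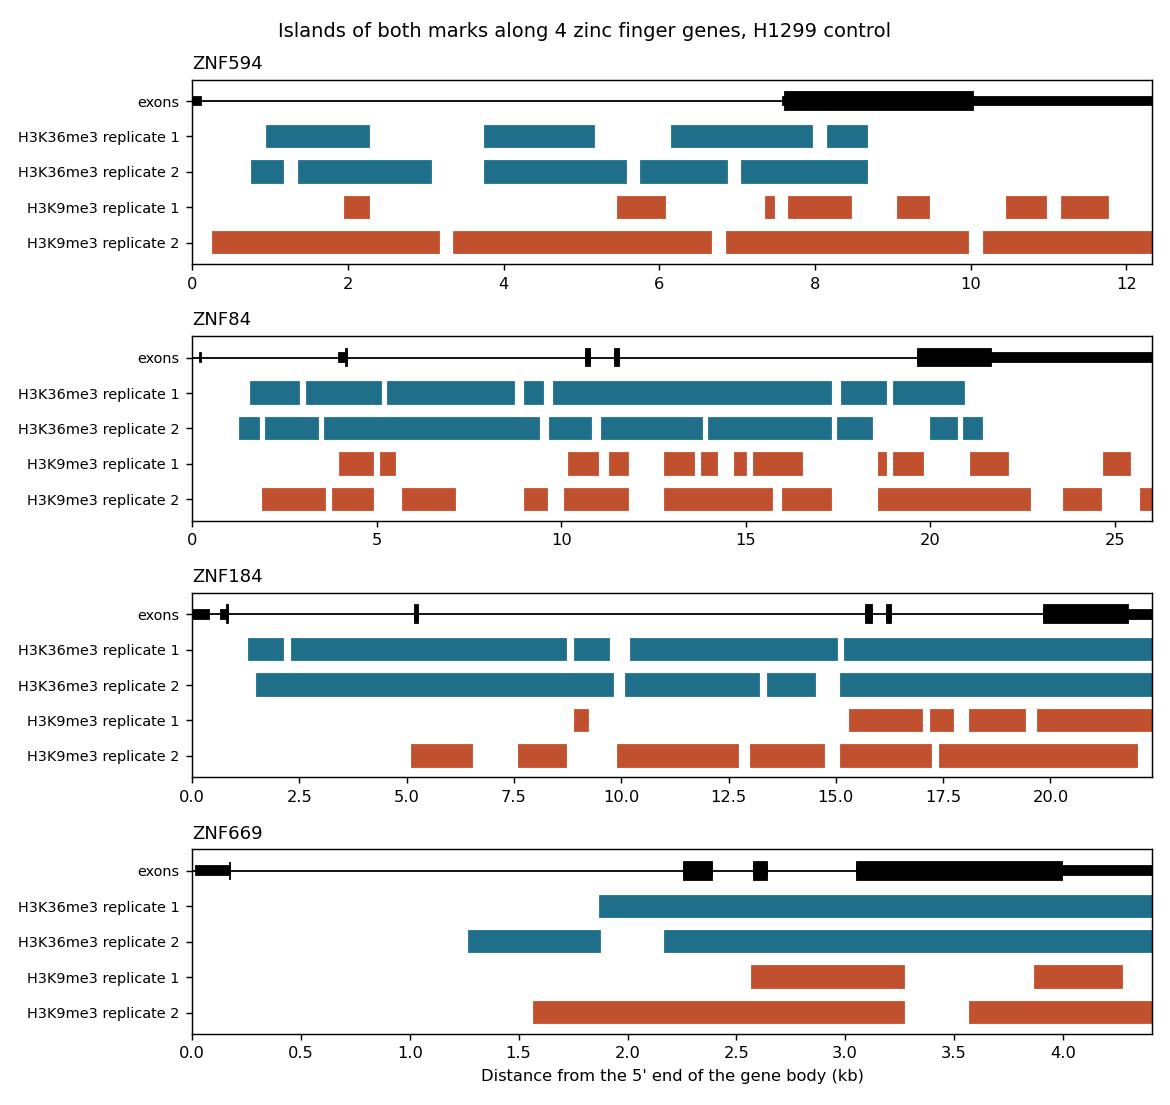
Islands of the 4 control libraries (coloured blocks, 1 row per library) along ZNF594, ZNF84, ZNF184 and ZNF669, drawn from the 5′ end of each body (x axis, kb); black bars are exons, thick where coding. The thick last coding exon of ZNF184 is covered in all 4 rows, while in ZNF594 H3K36me3 ends inside that exon and H3K9me3 goes on.

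The marks often met on the same bases. Of the 106.5 kb under H3K9me3 in the 28 genes (both replicates), 74.1 kb, or 69.6%, were also under H3K36me3, and those bases were 23.3% of the genes' H3K36me3. The share of H3K9me3 bases with H3K36me3 ranged from 13.3% in ZNF605 to 100% in 9 genes, ZNF184 among them, with a median of 81.3%. Over all gene bodies, bases with both marks were 2.83 to 3.04 times as many as the product of the marks' covered shares in the 4 pairings of single libraries, and 7.60 times for bases shared by the replicates. All lists were called against a matched genomic input, and the labels name a single input library for H1299 control. The part of this shared input in the overlap was not tested. With islands of 0 input reads left out, the ratio for bases shared by the replicates was 11.3, which does not remove the shared input. Whole-genome, 250.6 kb carried both marks in both replicates, which was 16.3% of the H3K9me3 bases, and 54.1% of these 250.6 kb lay in C2H2 genes. Within gene bodies, C2H2 genes held 58.3% of the bases with both marks. They held 31.8% of the H3K9me3 bases there, 3.99% of the H3K36me3 bases and 1.94% of all gene-body bases. The overlap of the marks is of populations of cells: whether both sit on the same chromatin fibre was not measured.

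Along the body, the marks kept different profiles across all genes. On a scale from 0 at the 5′ end to 1 at the 3′ end, gene-body bases of H3K36me3 had a mean position of 0.553 and 0.546 in the control libraries and those of H3K9me3 of 0.491 and 0.475. No H3K36me3 library was below an H3K9me3 library in control, DOX or H661. The control difference was 0.0671, and over the 3 cell states the difference passed the exact permutation test of mark labels within states (two-sided p = 0.00926, the smallest that 216 reassignments allow, adjusted p = 0.0278 over 6 measures). With same-numbered libraries as pairs the exact p was 0.0312, the smallest that 64 sign flips allow, and adjusted p = 0.0625. The first 5 of 20 equal parts of the bodies held 18.9% and 19.7% of H3K36me3 bases and 25.5% and 27.6% of H3K9me3 bases, and the last 5 parts 30.8% and 30.2% against 23.9% and 22.1%.

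Within the 28 genes the order was the other way round. H3K9me3 lay further 3′ than H3K36me3 in 21 of 28 genes for bases shared by replicates, with median positions of 0.673 and 0.564. In the pairings of single libraries it did so in 18 to 23 of 28. The median position in replicates 1 and 2 was 0.671 and 0.577 for H3K9me3 and 0.553 and 0.535 for H3K36me3, so the shift was small in H3K9me3 replicate 2. These are medians over genes, whereas the values for all genes are means over pooled bases. The genes with the largest shift of H3K9me3 to the 3′ side were ZNF184 (0.839 against 0.537 for H3K36me3), ZKSCAN5 on chromosome 7 (99504662 to 99534700, plus strand; 0.882 against 0.605) and ZNF268 on chromosome 12 (133181409 to 133214832, plus strand; 0.583 against 0.319). The largest shifts to the 5′ side were in RBM12B (0.355 against 0.539), ZNF436 on chromosome 1 (23359448 to 23369836, minus strand; 0.476 against 0.577) and ZNF391 on chromosome 6 (27374615 to 27403908, plus strand; 0.786 against 0.828). These 6 were picked for their shifts among bodies of at least 10 kb, so the shifts were not tested.

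**Figure D4:**
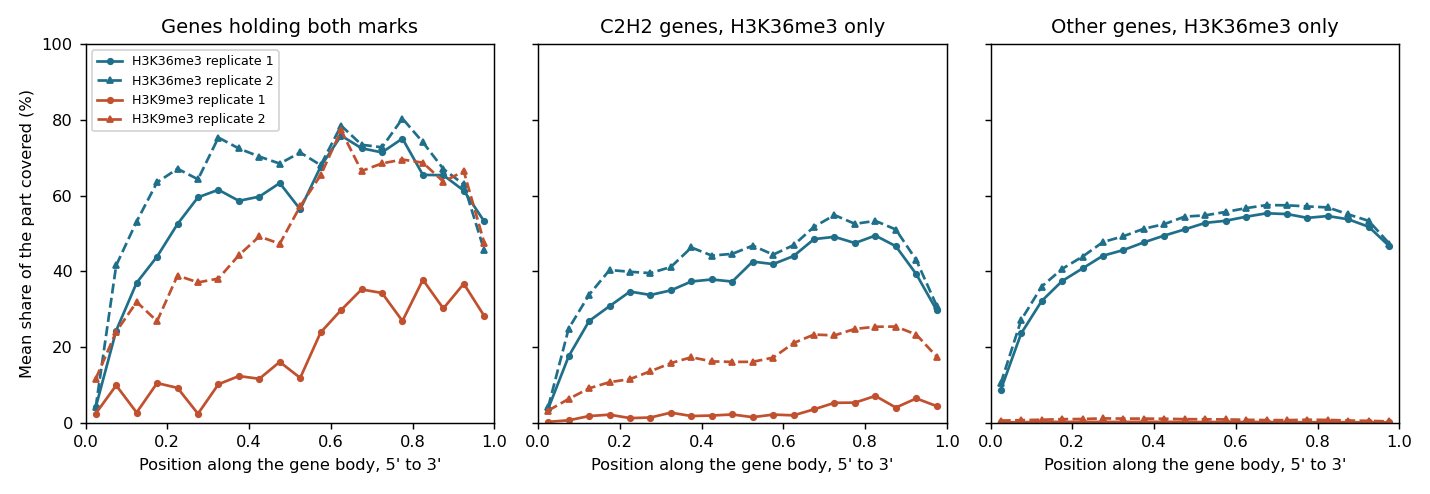
Mean share of each of 20 equal parts of the gene body covered by islands (%, y axis) against position from the 5′ to the 3′ end (x axis), for the 28 genes holding both marks (left), 237 C2H2 genes (middle) and 3955 other genes (right) holding H3K36me3 only; solid lines are replicate 1, dashed lines replicate 2. H3K9me3 climbs towards the 3′ side in the left and middle panels and stays below 1.2% in the right one.

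H3K36me3 islands lay almost wholly in gene bodies, H3K9me3 islands mostly outside them. Protein-coding bodies make up 44.5% of the genome and held 95.4% and 95.5% of H3K36me3 island bases against 38.6% and 44.8% of H3K9me3 bases. The control difference was 53.8 percentage points (exact permutation test over 3 states, p = 0.00926, adjusted p = 0.0278; with pairs, adjusted p = 0.0625). Of the gene-body bases, C2H2 genes held 3.66% and 4.00% for H3K36me3 and 16.1% and 17.9% for H3K9me3. That difference was 13.2 percentage points, with H3K9me3 the higher mark on average in each state, although in H661 the libraries overlapped (7.30% and 3.23% against 3.48% and 2.73%; exact permutation test, p = 0.0185, adjusted p = 0.0370; with pairs, adjusted p = 0.0625; at a log2 fold above 2, adjusted p = 0.0556). Because 2 libraries against 2 cannot give an exact p under 0.333, control alone could not pass any test. The GC content of island bases (42.1% and 42.1% against 40.6% and 45.3%, adjusted p = 0.593) and the median island width (adjusted p = 0.208) did not pass the exact permutation test.

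Across the fixed gene lists, no family outside C2H2 held H3K9me3 in both replicates. Since 0.145% of all genes held it, a count of 0 in lists of these sizes is near the background. Of 283 genes with a KRAB box pattern 143 held H3K36me3 and 16 both marks, and at 200 bp 112 (39.6%) had H3K9me3. H3K9me3 was held by 25 of them in replicate 1 and 150 in replicate 2. The housekeeping, cytosolic ribosomal protein, H3K36 machinery, HOX, canonical histone, cancer-testis and lung lineage lists had 0 genes with 200 bp of H3K9me3, while H3K36me3 was held by 23 of 30, 71 of 86, 18 of 25, 0 of 39, 3 of 76, 1 of 20 and 1 of 24 of them. Over all genes 4.73% had 200 bp of H3K9me3 and 21.1% held H3K36me3, so a count of 0 for H3K9me3 in the lists of 20 to 39 genes is near the background. For the cytosolic ribosomal protein and canonical histone lists, of 86 and 76 genes, the difference was not tested, and body length was not taken into account. Examples with H3K36me3 only were the elongation factor gene EEF2 (97.2% and 94.6% of the body), the glycolytic gene GAPDH (95.1% and 92.5%), the ribosomal protein gene RPS12 (92.3% and 95.6%) and the H3K36 methyltransferase gene NSD2 (56.3% and 76.7%). The mitochondrial ribosomal protein genes held H3K36me3 in 43 of 78 cases, led by MRPS18B (87.6% in each library), and 2 of them had 200 bp of H3K9me3. H3K36me3 was held by 0 of 53 clustered protocadherin genes, 0 of 149 keratin genes and 3 of 25 imprinted genes (SGCE, GNAS and PEG10). It reached 200 bp in 22 (41.5%), 1 (0.671%) and 5 (20%) of them, against 39.7% of all genes. H3K9me3 reached 200 bp in 3, 0 and 1 of them and in 1 olfactory receptor gene, OR2T1.

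In the lists of H3K9 and H3K36 machinery 0 of 27 and 0 of 25 genes held both marks, which says little where 0.14% of all genes did. In the H3K9 list 15 of 27 genes held H3K36me3, among them the methyltransferase genes SETDB1 (86.4% and 86.9% of the body) and EHMT2 (82.5% and 87.7%) and the demethylase gene KDM3A (85.1% and 88.0%). With 200 bp as the minimum 4 of the 27 had both marks, against 3.38% of all genes. ZNF274, which encodes a zinc finger protein that recruits SETDB1 to zinc finger gene 3′ ends, came closest, with 10.2% and 51.1% of its body under H3K9me3 and 9.50% in both. The SETDB1 partner gene ATF7IP had 5.76% and 12.3% and SETDB1 itself 1.82% and 6.24%.

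Genes with 1 mark only give the range of each. Of genes of at least 10 kb with no H3K9me3 base in either library, PRRC2A (96.6% and 97.7% of the body), the nuclear import gene KPNB1 (96.0% in each), KHDC4 (97.1% and 95.9%) and SRRT (94.9% in each) ranked highest by the H3K36me3 share common to both replicates. Of those with no H3K36me3 base, the glutathione transferase gene GSTA1 (5.60% and 8.01%) ranked highest in the same way for H3K9me3, followed by the mucin genes MUC17 (4.90% and 41.8%) and MUCL3 (4.06% and 22.3%) and by KIF25 (8.39% and 19.9%). None of these 4 reached 10% in both replicates.

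At their promoters, within 1500 bp of the start of the canonical transcript, the 28 genes mostly carried active marks. Islands of H3K27ac, a mark of active promoters and enhancers, were there in 19 and 22 of 28 in the H1299 control libraries (67.9% and 78.6%), against 76.8% and 80.6% of the 237 C2H2 genes with H3K36me3 only and 51.2% and 50.9% of the 346 that held neither mark. Over all genes the H3K27ac shares were 42.8% and 45.8%, and in the 3955 genes outside the family with H3K36me3 only they were 84.5% and 89.9%. H3K4me1 was at 20 and 24 of the 28 promoters (71.4% and 85.7%, against 42.5% and 50.3% of all genes). That was near the shares in genes with H3K36me3 only: 63.7% and 80.6% of the 237, and 75.2% and 85.8% of the 3955. H2AK119ub, the mark of Polycomb complex PRC1, was at 6 and 9 (21.4% and 32.1%), near the 14.1% and 26.3% of all genes. H3K9me3 itself was at 3 and 9 (10.7% and 32.1%, against 0.615% and 2.43%), although the genes were chosen for this mark in their bodies. The 26 C2H2 genes had bodies of 22.6 kb at the median, close to the 25.4 kb of the 237, and 13 finger patterns against 10. They were less often on chromosome 19, with 6 of 26 (23.1%) against 122 of 237 (51.5%), a difference that was not tested.

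By chromosome, the 28 genes were spread over 11 chromosomes, with 6 on chromosome 19, 4 on chromosome 4, 3 each on 6, 8 and 12, 2 each on 1, 7 and 16, and 1 each on 5, 10 and 17. Chromosome 19 has 266 of the 610 C2H2 genes, and 2.26% of these held both marks, against 4 of the 10 on chromosome 4 and 3 of the 14 on chromosome 12. The share of island bases on chromosome 19 was 3.62% and 4.16% for H3K36me3 and 3.87% and 7.56% for H3K9me3, and the marks overlapped in H661 (5.52% and 7.75% against 6.56% and 3.77%). This difference did not pass the exact permutation test (adjusted p = 0.593), and its sign in control rested on H3K9me3 replicate 2.

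H3K9me3 was less even between chromosomes than H3K36me3. Relative to its share of the genome, chromosome 8 held 3.82 and 2.31 times as many H3K9me3 bases, chromosome 6 2.37 and 2.03 times and chromosome 7 1.87 and 1.76 times, against 1.26 and 1.18, 1.39 and 1.35, and 1.20 and 1.22 times for H3K36me3. H3K36me3 was densest on chromosome 17, at 2.04 and 2.14 times, and sparse on chromosome 13 (0.223 and 0.232) and X (0.138 and 0.143). H3K9me3 was sparser still there, at 0.0687 and 0.146 on chromosome 13 and 0.0246 and 0.0195 on X. The read density of the genomic input under H3K36me3 islands moved with both marks: it was 1.13 times the average on chromosome 8, 1.21 on 7 and 1.27 on 17, but 0.455 on 13 and 0.496 on X. Over 23 chromosomes, which share these libraries and the input, Spearman's rho with input density was 0.823 and 0.866 for H3K36me3 and 0.789 and 0.809 for H3K9me3. The part of DNA copy number in these densities was not tested.

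**Figure D5:**
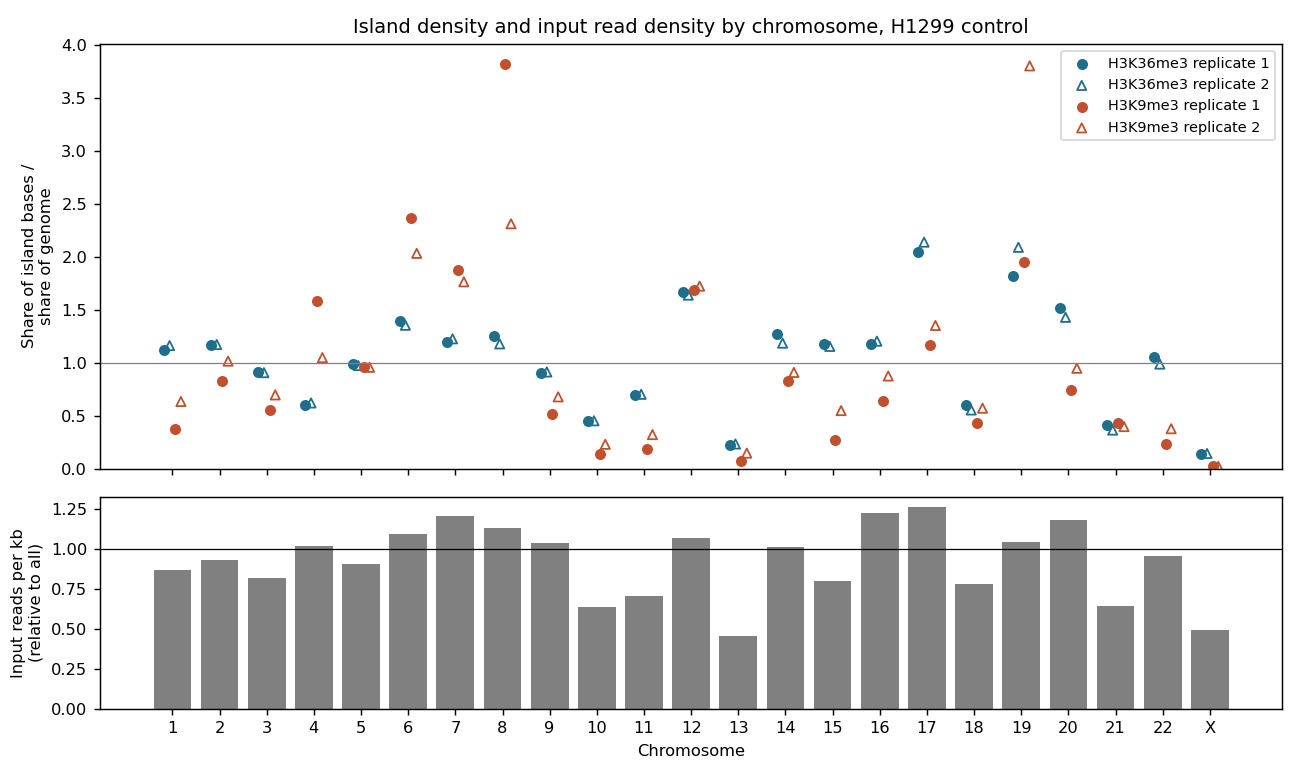
Top: share of island bases divided by share of the genome (y axis) for each chromosome (x axis) and control library; the line at 1 is an even spread. Bottom: input reads per kb under H3K36me3 islands relative to all chromosomes. H3K9me3 stands highest on chromosome 8 in replicate 1 and on chromosome 19 in replicate 2, and all 4 libraries and the input are low on 13 and X.

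At a finer scale H3K9me3 gathered in fewer places than H3K36me3. Among 619 windows of 5 Mb, 48 windows were enough to reach the midpoint of the H3K9me3 bases shared by replicates and 103 that of the H3K36me3 bases, and in single libraries H3K9me3 needed 58 and 90. The window with the most H3K9me3 was the first 5 Mb of chromosome 4 (1 to 5000000), with 4.17% of the shared bases, 1.68% and 1.60% in the single libraries and 4 of the 28 genes. It also held the most shared H3K36me3 (0.858%), and its input density was 1.67 times the average. The next were on chromosome 19 (35000001 to 40000000, 2.46%, with 3 of the 28 genes) and chromosome 6 (25000001 to 30000000, 2.11%, with 3 genes), with input at 1.18 and 1.28 times the average.

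In DOX-treated cells of the same line the pattern returned, and in H661 it returned in part. With DOX, 5237 genes held H3K36me3 (26.2%), 32 held H3K9me3 (0.16%) and 30 held both (0.15%), of which 28 were C2H2 genes. Of the 28 control genes 21 held both marks with DOX, which was 75.0% of the control list and 70.0% of the DOX list, and 27 had at least 200 bp of H3K9me3. In H661, 5383 genes held H3K36me3 (26.9%), 331 held H3K9me3 (1.65%) and 38 held both (0.19%), of which 18 were C2H2 genes. C2H2 genes were thus 47.4% of the 38, against 610 among all 20007 genes. Of the 28 control genes 3 were among these 38. In H661, 16 of the 28 held H3K36me3 and 4 held H3K9me3, and 15 had at least 200 bp of H3K9me3. The share of all genes with 200 bp was not taken in H661. Of genes with H3K9me3, 11.5% also held H3K36me3 in H661, against 96.6% in control. The control share rested on H3K9me3 replicate 1: without it, 217 of 414 genes with H3K9me3 held both marks. The H661 libraries had more H3K9me3 reads in islands, 1930403 and 2950537, over 74.1 and 103 Mb of islands. Total depth is unknown, and the part of depth or covered length in this contrast was not tested.

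With DOX, islands common to both replicates covered 87.4% of ZNF184 for H3K36me3 and 36.6% for H3K9me3, and 33.2% and 30.8% of ZNF594. Over the 28 genes, which were chosen for their shares in control, the median control share was 47.2% for H3K36me3 and 13.7% for H3K9me3. For the same genes the medians were 58.9% and 15.6% with DOX and 12.3% and 1.15% in H661. Because of that choice, a lower value in another state is not by itself a difference between states. For 6 of the 28, among them ZNF721, ZNF732 and ZNF141, no base was under H3K36me3 in both H661 libraries.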

How the data were processed

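The deposited island lists of 12 ChIP-seq libraries were used. Per the labels and methods, the authors trimmed reads with Trim Galore 0.6.6, aligned them to hg38 (GRCh38.p13) with BWA 0.7.13, marked duplicates with Picard 2.6.0, used SAMtools 1.9, and called islands with EPIC2 for each replicate against its matched genomic input, in bins of 100 bp. The deposited lists give raw ChIP and input read counts per island, a log2 fold over input, a score that is 100 times this log2 fold, and a p-value with its false discovery rate (q-value). The files list island reads alone, so total depth is unknown.

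Islands with a log2 fold above 1 and a false discovery rate below 0.05 on standard chromosomes were kept. The study's blacklist was not used here. Gene bodies were those of 20007 protein-coding genes in GENCODE 44. C2H2 genes were taken by symbol (ZNF, ZFP, ZSCAN, ZKSCAN, ZBTB or ZIM with a number), and fingers and KRAB patterns were searched in coding sequences translated in code. Intervals are Wilson intervals at 95% and cover counting error only.

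For 6 measures, mark labels were permuted exactly within the 3 states (216 reassignments, two-sided) with Benjamini-Hochberg adjustment over the 6. Same-numbered libraries of the marks deviated together over genes (r = 0.218, 0.110 and 0.183 in control, DOX and H661), so the numbers were taken to pair them, from the data and not the labels, and an exact sign-flip test over 6 pairs is given beside the results it changes. The tests were checked on simulated data.

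The members and lists were chosen with earlier results of these data known. Genes are named by rule: the 10 with both marks and the largest smaller share, the 6 whose marks lie farthest apart, all members outside the C2H2 family, 4 per mark with no base of the other, and examples of each list. ZNF595, ZNF572 and the genes at the threshold were named after their values were seen. Alternatives were other fold, share and overlap limits, single replicates and fewer states. Python 3.11.15, NumPy 2.4.6, pandas 2.3.3, SciPy 1.17.1 and Matplotlib 3.10.9 were used.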

Additional observations from a re-analysis of the deposited data

How the results depend on the processing

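The H3K9me3 libraries decided the counts. Leaving out 1 library at a time, genes with H3K36me3 numbered 4220 to 6371, genes with H3K9me3 29 to 414 (51 without H3K9me3 replicate 2, 414 without replicate 1) and genes with both 28 to 217, with a C2H2 share of 70.5% to 93.1% and an observed to expected ratio of 3.47 to 5.60. The width difference went from -250 bp without H3K9me3 replicate 1 to 350 bp without replicate 2, where it passed (exact permutation test, adjusted p = 0.0278), and without replicate 2 the chromosome 19 and GC differences changed sign (ranges -3.68 to 0.0155 and -3.17 to 1.5 percentage points). In these 4 fits the 3 differences that had passed still passed, at 50.7 to 56.9 points for gene bodies, 0.0591 to 0.0750 for position and -14.1 to -12.3 points for C2H2 genes.

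With a log2 fold above 2, H3K36me3, H3K9me3 and both were held by 2269, 15 and 12 genes, 100% of the last C2H2, the ratio was 12.5 and the C2H2 difference was -14.7 points (exact permutation test, adjusted p = 0.0556). With no fold minimum the ratio was 6.98. Without islands of 0 input reads 12 genes held H3K9me3 and 12 both, at a ratio of 11.3. With H3K36me3 cut to the covered length of H3K9me3, 152 genes held it and 2 both, both of them C2H2 (100%), at a ratio of 5.29. At 5% of the body 63 genes held H3K9me3 and 60 both. At 25% the counts were 2266, 4 and 3 (100% C2H2), at 200 bp 7937, 947 and 677 (23.8%), in either replicate 7496, 466 and 312 (67.9%), and among genes that overlap no other 2430, 17 and 16 (100%). With the replicate block, the differences stayed at 53.8, 0.0671 and -13.2 but missed the threshold (exact p = 0.0312, adjusted p = 0.0625), and with H1299 control and DOX only they did too (exact p = 0.0556, the smallest possible, adjusted p = 0.111). The causes were not tested.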
